A study of Mus musculus with 13 samples.

Results

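Spots with the highest summed level of Tshz2, Slc17a6, Hsd11b1 and Nrep were described in sections of the mouse brain. In each section the 120 spots with the highest sum were taken among spots with a total of at least 2000 counts, which gave 240 spots of 1973. They are called Nrep Tshz2 spots here, after the pair of genes that carried most of the sum; Slc17a6 had a count in 55% and 38.3% of them in sections S4 and S8 and was the highest of the 4 genes in 5 and 6. The comparison spots were the other 897 and 826 spots that reached the same total, in sections S4 and S8. The spot assay was Visium, a slide-based method whose spots take up RNA from small patches of tissue that can hold several cells or parts of cells. The 2 sections were cut at 10 µm from flash-frozen wild-type brain and stained for NeuN, a neuronal protein, and DAPI, a DNA dye. The labels of the sections give no strain, age or animal. Each section holds both sets, so p-values rest on how the difference between the sets varied over these 2 sections. The series also holds 11 samples of dissociated neurons, microdissected from the retrosplenial cortex of wild-type B6 mice and pooled across slices, from 3 animals by the deposited cell table. The labels name no treatment for any sample.

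The retrosplenial cortex is a midline cortical area that links the hippocampal formation, the anterior thalamus and the visual and motor cortex, and it is known for its part in navigation and memory. Its granular division has densely packed superficial neurons that are unusual for cortex. Each gene of the rule has a known role. Tshz2 encodes a zinc finger transcription factor, found in retrosplenial neurons and also in near-projecting deep-layer neurons elsewhere in cortex. Slc17a6 encodes VGLUT2, the vesicular glutamate transporter that is typical of thalamus, while most cortical excitatory neurons rely on Slc17a7 (VGLUT1). Hsd11b1 encodes the enzyme that regenerates active glucocorticoid inside cells. Nrep encodes a small protein first studied in neuronal regeneration. The comparisons below ask which other genes are higher or lower where these 4 genes are high.

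The spots of S4 and S8 had median totals of 7640 and 6746 counts in the Nrep Tshz2 spots and of 8401 and 6706 in the other spots. The summed counts behind each value were 893054 and 830913 for the Nrep Tshz2 spots and 7538788 and 5555179 for the others. Mitochondrial genes took 11.5% and 11.7% of the counts of the Nrep Tshz2 spots against 10.8% and 8.97% elsewhere. The ribosomal RNA-rich gene Gm42418 took 2.39% and 5.73% against 2.41% and 8.86%. Of all spots, 162 barcodes occurred in both libraries, and 1 barcode was in the selected set of both.

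The spots were chosen by the summed CPM of these 4 genes, where CPM is a gene's count relative to the total of the spot or sum, scaled as counts per 1e6, so their values are a description only. Within the selected spots the sum ran from 515.7 to 2133 CPM in S4, with a median of 804, and from 503.7 to 1765 CPM in S8, with a median of 734. The lowest selected spot and the highest spot left out were at 515.7 and 507.9 CPM in S4 and at 503.7 and 500.3 CPM in S8, so the limit cut through a continuous range. Nrep and Tshz2 carried most of the sum, with 43.7% and 33.9% of it in S4 and 44.2% and 33.1% in S8. Tshz2 summed to 296 CPM in S4 and 276 CPM in S8 within the set, against 19.6 and 21.4 CPM outside. Slc17a6 was at 102 and 86.7 CPM against 18.3 and 17.1 CPM, and Hsd11b1 at 99.7 and 105 CPM against 24.5 and 15.7 CPM. Nrep was at 401 and 367 CPM against 58.5 and 52.9 CPM. A count of all 4 genes was found in 26 of the 120 selected spots of S4 and in 14 of the 120 of S8, while 5 and 9 spots entered with a count of 1 gene.

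**Figure D1:**
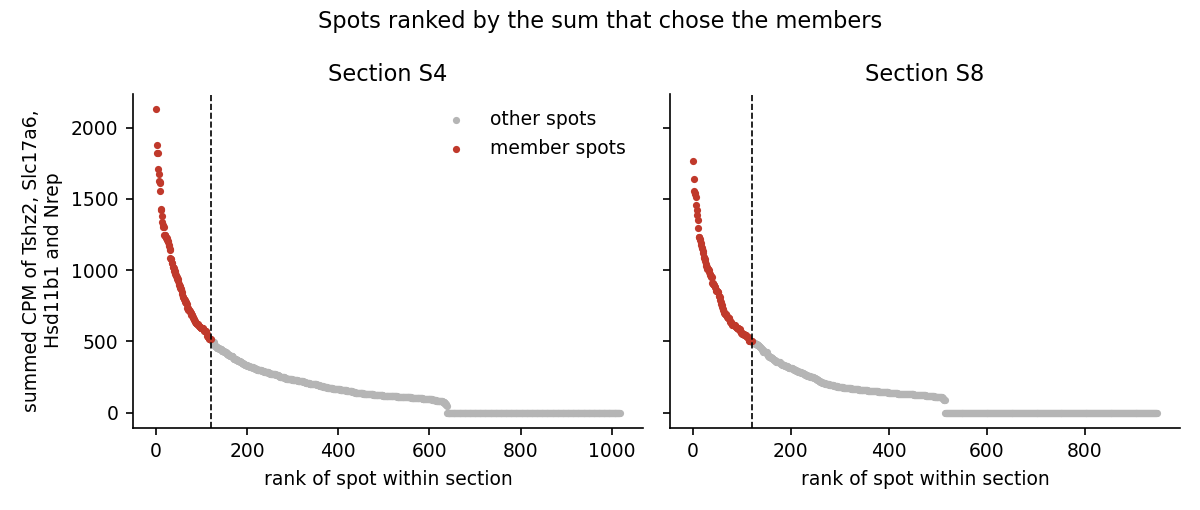
Spots ranked by the summed CPM of Tshz2, Slc17a6, Hsd11b1 and Nrep (vertical axis) within section S4 (left) and S8 (right); each point is 1 spot, the selected spots are red and the dashed line marks rank 120. The sum falls without a step at the line, and many spots have a sum of 0.

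For every other gene, counts were summed over the selected spots and over the other spots of each section and compared with edgeR's quasi-likelihood test, with the section as a block. Calls needed an adjusted p (Benjamini-Hochberg) below 0.05 together with a log2 fold change of 0.5 or more in size. Of 12200 genes tested, 412 were called (3.38%), of which 177 were higher (1.45%) and 235 lower (1.93%) in the Nrep Tshz2 spots. The median log2 fold change over all genes tested was 0.00, and all 412 calls had the same direction in both sections. Of the 412, 162 changed by a log2 of 1 or more in size. Without the section block the calls fell to 54 higher and 78 lower, and DESeq2 called 48 and 74. DESeq2 gave an adjusted p for 2739 of the 12200 genes and for 199 of the 412 calls, and 120 of those 199 were called by it too. A spot mixes cells, and fewer cells of a type and less RNA per cell cannot be told apart in such sums.

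**Figure D2:**
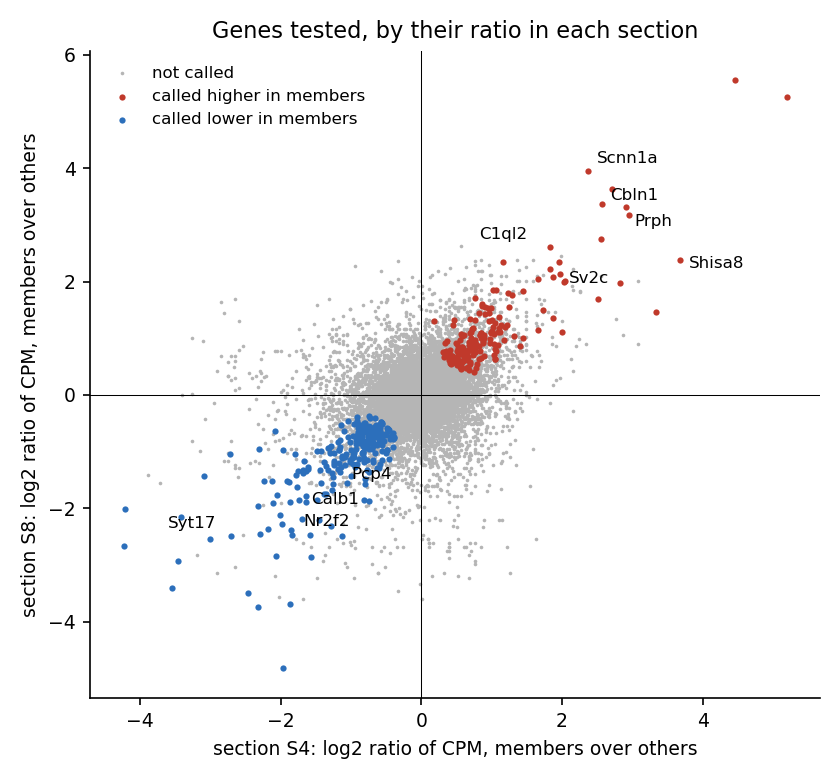
Log2 ratio of CPM (selected over other spots, with 0.5 added to each count) in section S4 (horizontal) and S8 (vertical) for the 12200 genes tested; red points are the 177 genes called higher, blue the 235 called lower and grey the rest. Called genes lie in the same quadrant for both sections, and the highest pair of red points are Il22 and Iltifb.

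The 15 genes with the largest rise were all at low levels, and several encode secreted, membrane or cytoskeletal proteins. Cbln1, a secreted protein that joins presynaptic neurexins to postsynaptic delta glutamate receptors, was at 39.2 and 67.5 CPM against 6.63 and 6.48 CPM in the other spots, in S4 and S8 in this order. Both values of the set stood well above both values outside it (log2 fold change 3.0 with an SE of 0.26, adjusted p = 0.00053 in edgeR). Scnn1a, the alpha subunit of the epithelial sodium channel, was at 10.1 and 22.9 CPM against 1.99 and 1.44 CPM (log2 fold change 3.18 with an SE of 0.47, adjusted p = 0.00574 in edgeR). Prph, which encodes the intermediate filament peripherin, was at 16.8 and 25.3 CPM against 2.25 and 2.52 CPM (log2 fold change 3.12, SE 0.36). Shisa8, an auxiliary protein of AMPA receptors, was at 22.4 and 12.1 CPM against 1.73 and 2.34 CPM (log2 fold change 3.13, SE 0.44). The set held 9 and 19 counts of Scnn1a and 20 and 10 of Shisa8 in the sections, and both values of each gene lay above both values outside.

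C1ql2, a C1q-like synaptic protein known from dentate granule cells, was at 21.3 and 37.3 CPM against 6.1 and 6.12 CPM (log2 fold change 2.24, SE 0.31). Sv2c, a synaptic vesicle glycoprotein, was at 39.2 and 51.8 CPM against 10.2 and 10.3 CPM (log2 fold change 2.15, SE 0.23). For both genes, both values of the set lay above both values outside. Grm4, a presynaptic metabotropic glutamate receptor, was at 19.1 and 24.1 CPM against 5.31 and 5.76 CPM, and Bmper, a secreted regulator of bone morphogenetic proteins, at 24.7 and 16.9 CPM against 6.1 and 4.32 CPM. The remaining genes of this rank were Klhl33, Ttr, Matn4, Tmem125, Rnf152, Entpd3 and Mtmr11, with log2 fold changes from 1.61 to 2.12. Ttr, the thyroxine carrier made mainly by choroid plexus, was uneven between sections, at 10.1 and 41 CPM against 2.65 and 9.36 CPM, and its 43 counts were spread over 8 and 24 selected spots with at most 5 in 1 spot.

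These rises differed in how far they were spread over spots. Scnn1a had a count in 9 selected spots of S4 and 16 of S8, and Prph in 12 and 13. Klhl33 had a count in 12 and 6. The spread of Cbln1 was wider. Cbln1 had a count in 27 of 120 selected spots of S4 and 33 of 120 of S8, with at most 4 counts in 1 spot. With each spot thinned to 2000 counts, Cbln1 was seen in 5% of the selected spots of S4 (exact 95% interval 1.86% to 10.6%) and 9.17% of S8 (4.67% to 15.8%), against 1% (0.46% to 1.9%) and 1.45% (0.753% to 2.52%) of the other spots, where the unthinned shares were 22.5% and 27.5% against 5.24% and 4%. Intervals cover counting error only. Rnf152 and Tmem125 lost their calls with this thinning. Il22 and its near-identical neighbour Iltifb were called higher too, with 16 and 14 counts in the set against 3 and 2 outside, but reads of such copies can be split in the counting; the pair had too few counts for the naming rule and was picked out after its values were seen.

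The 15 genes with the largest fall had few counts in the Nrep Tshz2 spots. Syt17, a synaptotagmin family member, had the most counts among them and was at 8.97 and 12.1 CPM against 62.4 and 71.1 CPM in the other spots (log2 fold change -2.65, SE 0.23, edgeR adjusted p = 0.000581). Its level outside was thus several times that inside in both sections, with a pooled ratio of 6.32 (exact 95% interval 3.98 to 10.7, counting error only). Lpl, lipoprotein lipase, was at 3.36 and 1.21 CPM against 21.5 and 20.3 CPM, Otof, the exocytosis protein otoferlin, at 3.36 and 1.21 CPM against 14.2 and 23 CPM, and Bmp3, a bone morphogenetic protein, at 3.36 and 3.61 CPM against 19.2 and 22.9 CPM.

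Rxrg, a retinoid X receptor, and Wdr66 had 0 counts in the 240 selected spots and 84 and 71 outside. Against a floor of 3 counts over the set, Rxrg was at least 3.68-fold and Wdr66 at least 3.11-fold higher in the other spots. Rxrg lost its call in 5 of 13 alternatives and Wdr66 in 4 of 13, among them 60 spots per section, selection without Nrep and no section block. Trh, the thyrotropin-releasing hormone precursor, had 1 count in the set and 142 outside, a ratio of 18.7 with an exact 95% interval of 3.3 to 743. The intervals of the other genes with 1 to 3 counts in the set (Pgam2, Tnfaip8l1, Col23a1, Gpr101, Prkg2 and Smoc2) had lower bounds from 1.92 to 2.85 and upper bounds from 28.2 to 618. Plk5 and Col6a1 had 4 counts each in the set. Bmp3, Lpl and Plk5 lost their calls when each spot was thinned to 2000 counts.

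**Figure D3:**
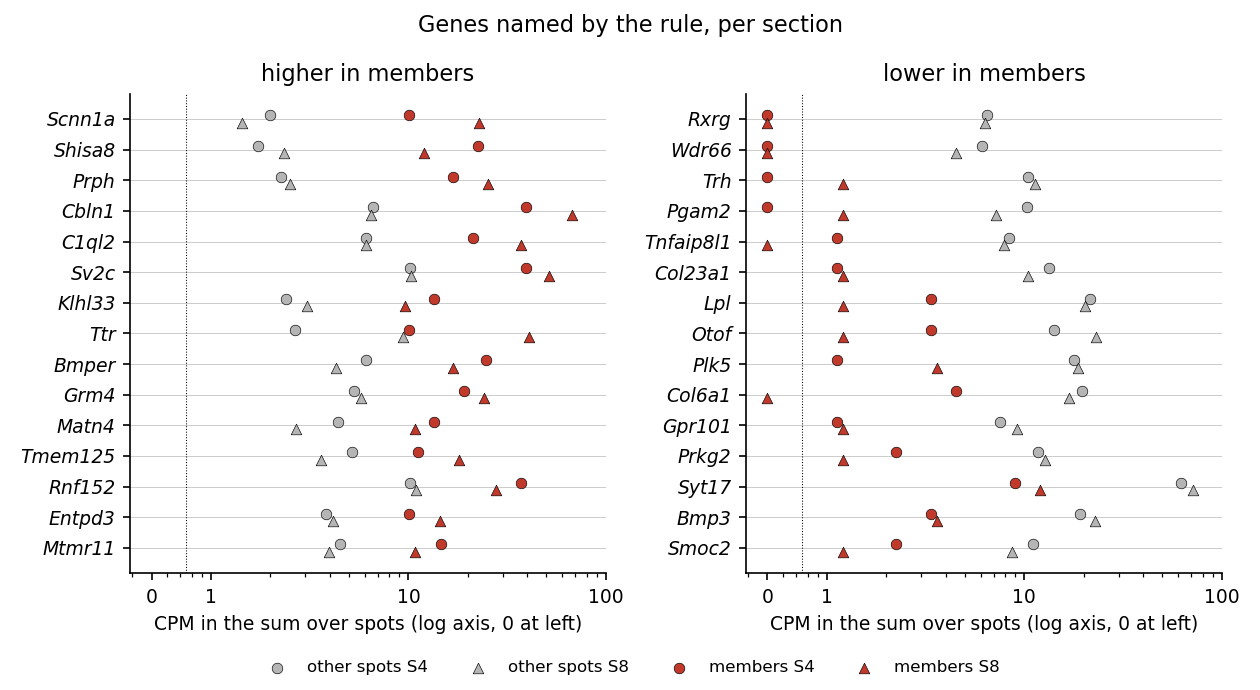
CPM of the 15 genes with the largest rise (left) and the 15 with the largest fall (right), summed over the selected spots (red) and the other spots (grey) of section S4 (circles) and S8 (triangles), on a log axis with values of 0 drawn left of the dotted line. In each of the 30 genes both red points lie on the same side of both grey points; Ttr has the smallest gap, at 10.1 against 9.36 CPM.

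Layer markers moved in different directions. Of 10 layer 5 markers tested, 5 were higher and 2 lower, with a median log2 fold change of 0.90 against 0.00 over all genes. Etv1, a transcription factor of layer 5 neurons, was at 242 and 243 CPM against 131 and 117 CPM (log2 fold change 0.99 with an SE of 0.10, adjusted p = 0.00109 in edgeR). In S4 as many as 23 of its counts lay in 1 selected spot. An Etv1 count was found in 54.2% of selected spots there against 51.2% of other spots. In S8 the most in 1 selected spot was 9, with shares of 65% against 43%. Parm1, Tox, Bcl6 and Sulf2 also rose, with log2 fold changes of 1.19, 1.11, 0.94 and 0.93. The pair that fell were Pcp4, a calmodulin-binding protein, and Bcl11b, the transcription factor CTIP2 of subcerebral projection neurons. Pcp4 was at 299 and 283 CPM against 673 and 647 CPM (log2 fold change -1.16, SE 0.08). Bcl11b was at 35.9 and 44.6 CPM against 66.6 and 69.7 CPM (log2 fold change -0.74). Its fall was not shared by the whole set. Selected spots with Tshz2 as the highest selecting gene had 60.9 and 71.6 CPM of Bcl11b, near the other spots. Those with Nrep as the highest had 23.7 and 15.4 CPM. The layer 5 list thus held calls in both directions. Fezf2 and Chst8, also of this list, had 0.63 and 0.88 and did not pass (edgeR adjusted p = 0.0883 and 0.0888).

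Of 9 layer 6 markers tested, 0 were higher and 3 lower (Rprm, Crym and Hs3st4), with a median of -1.20. Of 10 superficial markers, 2 were higher and 3 lower. Those higher were Pou3f1, a POU transcription factor, and Cbln2, a relative of Cbln1, which was at 49.3 and 74.7 CPM against 27.5 and 25.4 CPM (log2 fold change 1.23, SE 0.20). Those lower were Otof, Wfs1 and Rasgrf2, with Wfs1, an endoplasmic reticulum protein also found in the hippocampus, at 15.7 and 13.2 CPM against 65.3 and 60.3 CPM. Of 9 layer 4 markers, Rspo1 and Kcnab3 were higher and Lmo3 and Kcnip2 lower. Calb1, the calcium buffer calbindin, fell as well and was at 67.2 and 49.4 CPM against 227 and 181 CPM (log2 fold change -1.78 with an SE of 0.13, adjusted p = 0.000235 in edgeR).

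Gene lists drawn from classes of the dissociated neurons were compared in the same spots. These lists came from earlier clustering of the same series, so they are not independent of it. Of 6 genes tested from the class led by Tnnc2, Eps8l2 and Scnn1a, 3 were higher (Scnn1a, Eps8l2 and Pygm) and 0 lower, with a median log2 fold change of 1.40. DESeq2 gave none of the 6 an adjusted p. Of 7 genes of the layer 5 classes with Parm1 and C1ql2, those 2 were higher and Bcl11b lower, with a median of 0.87. Pygm, muscle glycogen phosphorylase, was at 47.1 and 37.3 CPM against 11.8 and 17.5 CPM (log2 fold change 1.58, SE 0.27), and Eps8l2, an actin regulator, at 11.2 and 9.64 CPM against 1.59 and 2.52 CPM. Of 6 genes of the Calb1 class, Calb1 alone was called, and it was lower. Of the 4 tested genes of the layer 6 corticothalamic class and the 4 of the layer 6b class, 1 and 0 were called, and medians were -1.21 and -1.17.

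**Figure D4:**
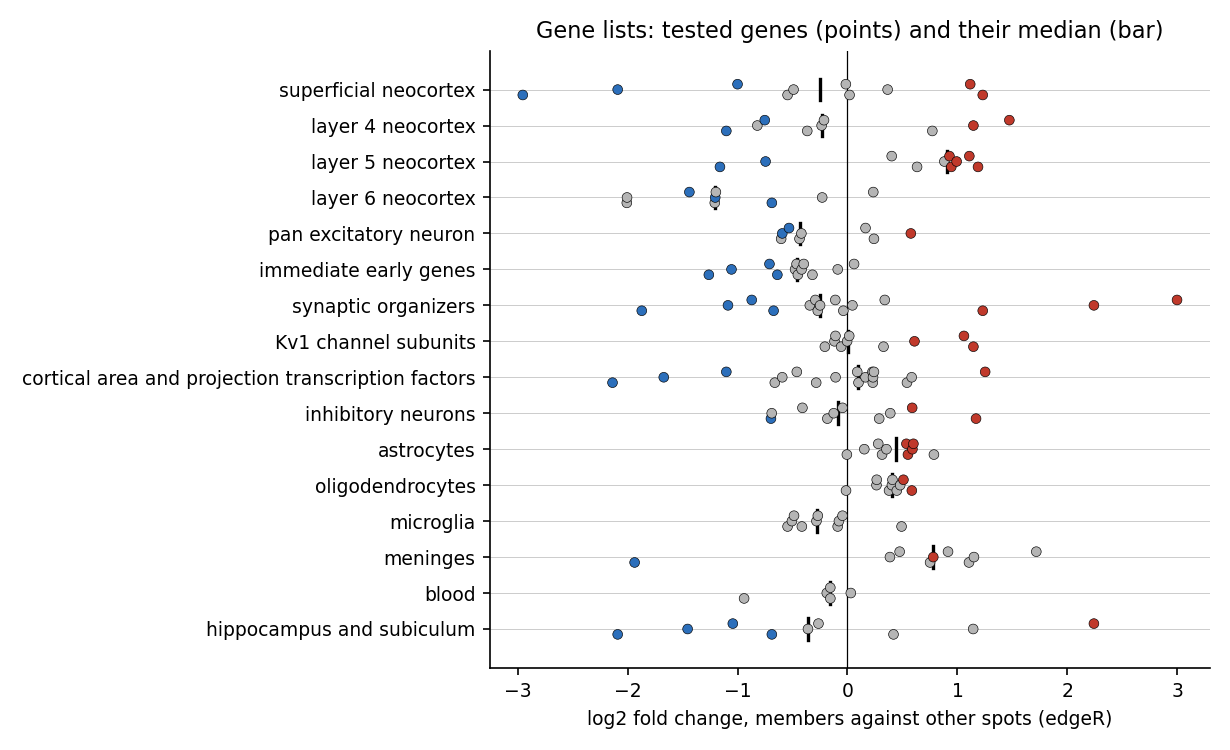
Log2 fold change (edgeR, selected against other spots, horizontal) of every tested gene of 16 lists (rows); red points were called higher, blue lower and grey not called, and the bar is the list's median. Layer 5, astrocyte, oligodendrocyte and meningeal lists have the highest medians of these 16 and the layer 6 list the lowest, while most of the lists hold calls in both directions or none.

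Genes of the synapse split by identity. Of 15 synaptic organizers tested, 3 rose (Cbln1, C1ql2 and Cbln2) and 4 fell (C1ql3, Nptx2, Lrrtm4 and Nptx1). C1ql3, a paralogue of C1ql2, was at 23.5 and 19.3 CPM against 52.8 and 111 CPM (log2 fold change -1.87, SE 0.27), the opposite direction to C1ql2. The pentraxins Nptx1 and Nptx2, which cluster AMPA receptors, had log2 fold changes of -0.67 and -1.09.

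Among 10 subunits and partners of Kv1 potassium channels, 3 rose and 0 fell. The list's median log2 fold change was 0.01, near that of all genes, and 5 of the 10 were positive. Those that rose were the beta subunits Kcnab1 and Kcnab3 and the pore subunit Kcna2. Kcnab1 was at 161 and 159 CPM against 81.5 and 74.5 CPM (log2 fold change 1.06, SE 0.11), Kcnab3 at 57.2 and 75.9 CPM against 29.6 and 31 CPM, and Kcna2 at 184 and 261 CPM against 123 and 172 CPM. Among other channel genes, the sodium channel gene Scn1a and Kcnc1, a Kv3 channel of fast-spiking neurons, rose, with log2 fold changes of 0.82 and 0.69, and Kcnip2, a partner of Kv4 channels, fell.

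Among 18 transcription factors of cortical area and projection identity, Zfpm2 rose, at 26.9 and 44.6 CPM against 16.2 and 13.7 CPM, and Nr2f2, Bhlhe22 and Lmo3 fell; DESeq2 gave none of these 4 an adjusted p. Nr2f2, the nuclear receptor COUP-TFII, was at 14.6 and 10.8 CPM against 54.7 and 59.8 CPM (log2 fold change -2.14 with an SE of 0.24, adjusted p = 0.00168 in edgeR), so its level outside the set was several times that inside in both sections. Bhlhe22 was at 24.7 and 20.5 CPM against 70.7 and 76 CPM. Nr2f1, a relative of Nr2f2, had a log2 fold change of -0.46 (edgeR adjusted p = 0.0468) and was not called.

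In the list for corticosteroid activation and response, to which the selecting gene Hsd11b1 belongs, 2 of 12 genes were higher and 0 lower. These were Scnn1a and Tsc22d3, which encodes the glucocorticoid-induced leucine zipper and was at 117 and 112 CPM against 68.8 and 62.8 CPM (log2 fold change 0.82, SE 0.12). The glucocorticoid receptor Nr3c1 had a log2 fold change of 0.02 and the mineralocorticoid receptor Nr3c2 one of -0.41, and neither passed (edgeR adjusted p = 0.964 and 0.457). Fkbp5 and Sgk1, other glucocorticoid targets, had -0.73 and 0.31 (edgeR adjusted p = 0.224 and 0.276). The list's median was 0.05, near that of all genes.

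Some activity genes were lower. Of 12 immediate early genes, 0 were higher and 4 lower (Fosb, Egr4, Junb and Egr3), with a median of -0.46. Egr4 was at 34.7 and 65 CPM against 74 and 135 CPM (log2 fold change -1.05, SE 0.14), and Junb at 89.7 and 183 CPM against 169 and 276 CPM. DESeq2 gave an adjusted p for 3 of those 4 lower genes and called 2 of them. Both sections showed the fall, although S8 had the higher levels in each set. Of 14 growth-associated genes, Gap43 and Marcksl1 fell, and Gap43 was at 243 and 192 CPM against 385 and 388 CPM. Of 13 neuropeptides, Trh and Npy fell and 0 rose, and of 5 acetylcholine receptor genes 0 were called with edgeR, with 1 at an unadjusted p under 0.05, and DESeq2 called 0 of the 1 it gave an adjusted p.

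Markers of cell types differed between the sets as well. The pan-excitatory list summed to 3269 and 3408 CPM in the Nrep Tshz2 spots against 4205 and 4902 CPM, and of its 8 genes Slc17a7 and Camk2a fell and Neurod6 rose. Slc17a7 was at 522 and 553 CPM against 789 and 857 CPM (log2 fold change -0.59 with an SE of 0.08, adjusted p = 0.00346 in edgeR). Inhibitory markers summed to 1242 and 1183 CPM against 1135 and 1085 CPM. Of 10, Pvalb and Gad1 rose and Npy fell, while 4 had a positive log2 fold change and the list's median was -0.09. Pvalb, the calcium buffer of fast-spiking interneurons, was at 323 and 244 CPM against 156 and 102 CPM (log2 fold change 1.17 with an SE of 0.09, adjusted p = 0.000361 in edgeR), and Gad1, which makes GABA, at 251 and 292 CPM against 192 and 173 CPM.

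Some glial markers rose. Astrocyte markers summed to 3920 and 4386 CPM against 3295 and 3338 CPM, with 4 of 10 genes higher (Fgfr3, Aldoc, Ndrg2 and Gja1), and oligodendrocyte markers to 2899 and 3714 CPM against 2299 and 2762 CPM, with 2 of 10 higher (Cldn11 and Cnp). The oligodendrocyte sums outside held single spots of up to 32680 and 41240 CPM. The median spot was at 2775 and 3313 CPM for this list in the set against 1561 and 1441 CPM outside. Of its 10 genes, 9 had a positive log2 fold change. DESeq2 called 2 of those 4 astrocyte genes and 0 of those 2 oligodendrocyte genes, all 6 of which it gave an adjusted p. Aldoc was at 1166 and 1208 CPM against 809.6 and 789 CPM (log2 fold change 0.59, SE 0.07). Meningeal markers summed to 609 and 1102 CPM against 569 and 455 CPM. Of 9 tested, Ptgds, a prostaglandin synthase, rose and Dcn, the proteoglycan decorin, fell, where the set held 495 and 828 Ptgds counts in the sections and as many as 169 of those of S8 lay in 1 spot. DESeq2 did not call Ptgds. Col3a1 was at 0 in the set in S4. Microglial (10 genes), blood (5 genes), oligodendrocyte precursor (6 genes) and vascular markers (9 genes) had 0 calls with edgeR, and 0, 0, 1 and 3 of them were at an unadjusted p under 0.05. DESeq2 called 0 of the 1, 4, 1 and 1 genes it gave an adjusted p. The part of glia, interneurons and meninges in the results above was not tested.

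Tissue outside cortex was checked by its markers. Hippocampal and subicular markers summed to 178 and 173 CPM in the set against 294 and 249 CPM, with C1ql2 higher and Wfs1, Fibcd1, Cpne4 and Hs3st4 lower. Thalamic markers summed to 58.2 and 73.4 CPM against 73.5 and 83 CPM and striatal ones to 133 and 117 CPM against 198 and 193 CPM. Of 6 thalamic markers tested, Calb2 alone was called and was lower, with 30 counts in the set and 505 outside. The thalamic list had a median log2 fold change of 0.20, and 4 of the 6 genes were positive, so its lower sum does not describe most of its genes. The thalamic marker Gbx2 and the striatal marker Adora2a were at 0 in the set in both sections. So were Ntng2 and Oprk1 of the 5 claustral markers, while the other 3 had counts there. Gbx2 was at 0 in the other spots of S4 too. Claustral markers summed to 149 and 126 CPM against 210 and 199 CPM. Of 3 tested, 0 were called with edgeR, with a median of -0.48 and 3 at an unadjusted p under 0.05. Positions of the spots were not used here, so whether the selected spots lie in the retrosplenial cortex was not measured.

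Against the 120 spots per section with the highest summed Cux2 and Lamp5, markers of superficial neocortex, edgeR with the section block called more genes than against all other spots. Spots in both sets, 10 in S4 and 21 in S8, were left out, which left 110 and 99 spots on each side. edgeR called 700 of 8980 genes tested (7.8%), with 270 higher (3.01%) and 430 lower (4.79%) in the Nrep Tshz2 spots. That order did not hold with DESeq2 (20 and 36 against 48 and 74) or without the block (45 and 83 against 54 and 78). Cbln1 was at 41 and 65.4 CPM against 3.06 and 1.53 CPM, Htr2c, the serotonin 2C receptor, at 57.9 and 72.8 CPM against 15.3 and 3.06 CPM, and Rnf152, a lysosomal ubiquitin ligase, at 38.6 and 29.7 CPM against 4.08 and 6.12 CPM. Zfpm2 and Rreb1 followed, with log2 fold changes of 2.23 and 2.07. The 5 largest falls were in Plk5, Lpl, Stard8, Ankrd63 and Atp6ap1l, with Lpl at 3.62 and 1.49 CPM against 44.9 and 35.2 CPM.

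In this contrast 8 of 10 layer 5 markers were higher and 0 lower, with a median of 1.26. Of 7 superficial markers tested, 0 were higher and 4 lower (Otof, Wfs1, Rasgrf2 and Cux1). The comparison spots were chosen by superficial markers, so the directions of layer markers, Bcl11b included, reflect that choice as well as the Nrep Tshz2 spots. Bcl11b, lower than in the other spots at large, was here higher, at 38.6 and 47.5 CPM against 20.4 and 24.5 CPM (log2 fold change 0.96 with an SE of 0.31, adjusted p = 0.0266 in edgeR); it was picked out after its values were seen. Oligodendrocyte markers were higher for 8 of 10 genes and astrocyte markers for 5 of 10, where DESeq2 called 4 of 7 and 1 of 3 of those it gave an adjusted p, and the part of those cells was not tested. Immediate early genes were lower for 8 of 12, with a median of -0.90.

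Against the 120 spots per section with the highest summed Rorb and Whrn, genes of layer 4 and middle layers, fewer genes were called. After 18 spots in both sets were left out in each section, 102 spots remained on each side. edgeR called 224 of 8945 genes tested (2.5%), with 87 higher (0.973%) and 137 lower (1.53%). Cbln1 was at 45.8 and 62.7 CPM against 4.64 and 3.12 CPM, Sv2c at 40.4 and 53 CPM against 5.8 and 14 CPM, and Pygm at 49.9 and 40.4 CPM against 12.8 and 10.9 CPM. Zfpm2 and Rnf152 completed the 5 largest rises. Syt17, Ccn1, Cntnap5a and Calb1 were among the largest falls, with Calb1 at 56.6 and 53 CPM against 239 and 164 CPM.

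Here 6 of 10 layer 5 markers were higher and 0 lower, with a median of 0.98. These comparison spots were chosen by genes of layer 4 and middle layers, so the layer 5 count reflects that choice as well. Of 12 immediate early genes, 9 were lower and 0 higher, with a median of -1.01. Astrocyte markers had 0 calls of 10 with edgeR, with 4 at an unadjusted p under 0.05, and 0 with DESeq2 of the 6 it gave an adjusted p, and oligodendrocyte markers 3 of 10 higher, of which DESeq2 called 1. This contrast rested on its block: without the section as a block 2 genes were called higher and 4 lower. The 3 contrasts share the Nrep Tshz2 spots, so their results are not independent of one another. For Cbln1 the log2 fold changes were 3.0 (SE 0.26) against all other spots, 4.32 (SE 0.49) against the Cux2 Lamp5 spots and 3.71 (SE 0.41) against the Rorb Whrn spots. For Syt17 they were -2.65 (SE 0.23), -2.45 (SE 0.34) and -2.14 (SE 0.33).

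The same 4 genes were then summed in the dissociated neurons, samples that the rule for spots did not use. In each of the 11 samples the 25% of cells with the highest sum were set against the rest, and counts were summed per animal, with 38 against 114 cells in animal 1, 77 against 227 in animal 2 and 79 against 230 in animal 3. The fit, which had the animal as its block, called 675 of 13305 genes tested (5.07%), with 349 higher (2.62%) and 326 lower (2.45%) in the high cells. In the high cells of the 3 animals against the rest, Scnn1a was at 77.7, 56.3 and 29.9 CPM against 10.3, 2.54 and 3.55 CPM (log2 fold change 3.48 with an SE of 0.35, adjusted p = 0.00138 in edgeR). Eps8l2 was at 115, 109 and 91.8 CPM against 7.06, 7.45 and 16.1 CPM, and Prph at 218, 129 and 117 CPM against 25.9, 29.4 and 18.1 CPM. In all 3 genes the high cells of every animal exceeded the other cells of every animal.

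Of the 177 genes higher in spots, 159 were tested in neurons and 63 were called in the same direction there, which is 39.6% of those 159 and 19.4% of the 325 genes called higher in neurons and tested in spots. Of the 235 lower in spots, 220 were tested and 93 were called lower, or 42.3% of those 220 and 30.6% of 304 neuron calls. The median neuron log2 fold changes of the 2 groups were 0.65 and -0.66, against -0.03 over the 11042 genes tested in both. Genes higher in both included Pygm, Grm4, Pvalb, Etv1, Parm1, Kcnab1, Kcnab3, Rspo1, Bcl6, Cbln2 and Tsc22d3. Genes lower in both included Calb1, Syt17, Pcp4, Nptx1, Nptx2, Otof, Plk5, Gap43, C1ql3 and Bcl11b. For Bcl11b the fall in spots was not seen in the selected spots with Tshz2 as the highest selecting gene. In the high neurons against the rest, Calb1 was at 24.6, 88.3 and 22.1 CPM against 176, 249 and 479.7 CPM.

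The inhibitory marker Gad1 was at 0.00, 0.22 and 0.61 CPM over all neurons of the 3 animals, while Pvalb was at 38.3, 90.2 and 34.5 CPM. Pvalb was higher in the high cells, at 99.1, 199.5 and 80.1 CPM against 19.7, 50 and 18.9 CPM (log2 fold change 2.13 with an SE of 0.14, adjusted p = 0.000289 in edgeR). With the top 10% of cells in place of 25%, its log2 fold change was -0.13 (SE 0.36, edgeR adjusted p = 0.937), so the call rests on the share of cells taken.

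Some genes went opposite ways in the 2 assays, and these were picked out after their values were seen. C1ql2 rose in spots but was lower in the high neurons, at 65.8, 54.8 and 30.7 CPM against 297, 159 and 142 CPM (log2 fold change -1.96 with an SE of 0.16, adjusted p = 0.000591 in edgeR). Dkk3, Galnt14, Ldb2 and Mt1 were the other genes higher in spots and lower in neurons. Cpne6, Cpne7, Hpcal1 and Marcksl1 were lower in spots and higher in neurons, with Hpcal1 at a log2 fold change of -1.71 in spots and 1.31 in neurons. Rnf152 and Bmper, which rose in spots, had -0.47 and 0.81 in neurons (edgeR adjusted p = 0.572 and 0.23). The immediate early genes, with 4 of 12 lower in spots, had 1 of 11 called in neurons, Dusp1, which was higher.

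Other genes led in neurons. The largest rises there were in Arhgef5, Acsbg1, Shisa3, Iltifb and Hbegf. Hbegf, a growth factor of the EGF family, was at 111, 99 and 85.7 CPM against 7.3, 6.3 and 8.53 CPM in neurons, while in spots it was at 6.72 and 8.43 CPM against 9.29 and 8.82 CPM (log2 fold change -0.24, edgeR adjusted p = 0.807). By the naming rule, the falls named in neurons were Pgam2, Ptgs1, Sulf1, Fam198b and Aldh3b2, which had 0 counts in the high cells of all 3 animals. Ankrd63, which the cell table lists under the predicted-gene name Gm1337 and which the rule therefore leaves out, also had 0 counts there, against 99, 253 and 598 in the other cells, and was lower in spots too. Pgam2 had 92, 265 and 247 counts in the other cells and was among the genes with the largest fall in spots too. All 7 tested genes of the Tnnc2, Eps8l2 and Scnn1a class were higher in the high neurons, a class drawn from these same cells.

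**Figure D5:**
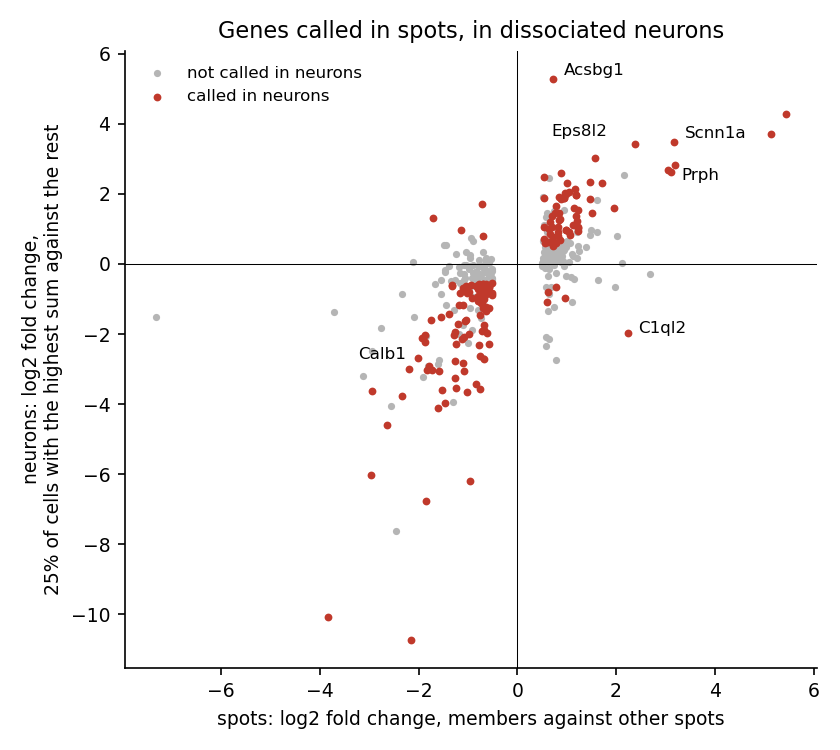
Log2 fold change in spots (selected against other spots, horizontal) and in dissociated neurons (25% of cells with the highest sum against the rest, vertical) for genes called in spots and tested in neurons; red points were also called in neurons. Scnn1a, Eps8l2 and Prph lie at the upper right, Calb1 at the lower left, and C1ql2 is the red point at the lower right, at 2.24 in spots and -1.96 in neurons.

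The Nrep Tshz2 spots were not uniform. Tshz2 was the highest of the 4 genes in 43 spots of S4 and 48 of S8, and Nrep in 66 and 55, while Slc17a6 led in 5 and 6 and Hsd11b1 in 6 and 11. Sums over the Tshz2-led and the Nrep-led spots are a description with no test, and the genes named were picked for their difference. Rorb was at 10.1 and 14.9 CPM in Tshz2-led spots and at 55.4 and 38.6 CPM in Nrep-led spots. Cbln1 was at 23.7 and 38.8 CPM against 53.4 and 95.2 CPM, and Bcl11b at 60.9 and 71.6 CPM against 23.7 and 15.4 CPM. Outside the set Bcl11b was at 66.6 and 69.7 CPM, so its fall was seen in the Nrep-led and not in the Tshz2-led spots. Nr4a2, a nuclear receptor, was at 81.1 and 80.5 CPM against 27.7 and 46.3 CPM. Pvalb differed less, at 321 and 224 CPM against 334 and 301 CPM, and so did Slc17a7, at 517 and 549 CPM against 505 and 558 CPM. The set thus held spots with more Rorb and Cbln1 and spots with more Bcl11b and Nr4a2.

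The spots with a total of at least 2000 counts, selected or not, numbered 1017 in S4 and 946 in S8. Across them, the genes whose CPM followed the sum of the 4 genes most closely were Ckb, Vsnl1, Ldhb, Pvalb and Sparcl1. They were taken from 7757 genes with a count in at least 10% of these spots. Their mean Spearman correlations over the sections were 0.34, 0.33, 0.29, 0.28 and 0.28. The points are spots of 1 library that share depth and tissue, and correlations of this size in sparse counts are weak. Ckb, brain creatine kinase, was at 2136 and 2313 CPM against 1588 and 1582 CPM in the Nrep Tshz2 spots and the other spots, and Vsnl1, a neuronal calcium sensor, at 1390 and 1561 CPM against 922 and 896 CPM.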

How the data were processed

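Counts per gene and spot, and per gene and cell, were used as deposited by the authors; the values are whole numbers and not normalized. Space Ranger, Seurat and the builds mm10 and NCBIM37 are named in the submitters' processing notes, without roles. The libraries of the spot table are called S4 and S8, and which labelled section each is was not needed. Members and gene lists were chosen with earlier results of these data known. The 4 selecting genes (6 against the other spot sets) were left out of sums and tests. Sums per section, or per animal, were compared in edgeR (version 4.0.16; R 4.3.3) by its quasi-likelihood test after TMM scaling and filterByExpr, with section or animal as block because each holds both sets; SE is the log2 fold change over the square root of F. CPM are counts scaled to the total of each sum. On simulated data (12200 genes, spots against other spots), 62 of 100 genes changed by a log2 of 1, 94 of 100 changed by 2 and 13 of 12000 unchanged genes were called. The simulation gave all genes a common spread (dispersion) and each gene the same change in both sections. Differences between genes in how they vary over sections were thus absent, so these counts are not error rates for the real data. Named genes are the 15 largest rises and falls (5 in other contrasts) among called genes with at least 50 counts and 1 direction, without predicted, ribosomal or mitochondrial genes, plus list genes and the 5 closest in pattern. Names were matched between tables for 11931 genes directly and for 1175 through RefSeq synonyms (GRCm38.p6); 2008 stayed unmatched. Nrep was matched by its older symbol. No doublet caller was run. The alternatives tried were other set sizes and total minimums, selection without each gene, a z-score, thinning, depth matching, RLE, library totals, DESeq2 1.42.0, no filter, no block, other fold minimums and leaving out each section or animal. Strand use in counting is not given in the sources used here. Some genes are not reported here.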

Additional observations from a re-analysis of the deposited data

How the results depend on the processing

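Against all other spots, 177 genes were called higher and 235 lower. The counts higher and lower were 327 and 410 when spots were chosen without Slc17a6, 285 and 382 without Hsd11b1, 310 and 389 by a mean z-score, 309 and 472 with library totals in place of TMM, 108 and 130 with each spot thinned to 2000 counts, 48 and 74 with DESeq2, 54 and 78 with no replicate block, and 61 and 101 at a fold minimum of 1 on the log2 scale. With 240 spots per section 271 were higher, and with no filter on low counts 496 were lower. Against the Cux2 Lamp5 spots (270 and 430) the counts were 20 and 36 with DESeq2, 45 and 83 with no replicate block and 117 and 167 at the higher fold minimum. Against the Rorb Whrn spots (87 and 137) they were 5 and 10 with DESeq2, 133 and 210 with no filter, 2 and 4 with no replicate block and 33 and 67 at the higher fold minimum. In neurons (349 and 326) they were 64 and 47 with 10% of cells and 197 and 207 at the higher fold minimum, 633 were lower with DESeq2, and leaving out 1 animal gave 227 and 174 without animal 1, 131 and 137 without animal 2 and 309 and 289 without animal 3. The cause of these shifts was not tested. Of the 88 genes named or listed and called against all other spots, 29 kept the call under every alternative tested for them, 59 lost it under at least 1 and 0 changed direction; Matn4 and Smoc2 lost it under 7 each, Rxrg under 5 and Wdr66 under 4, and Ttr with 60 spots per section and with no replicate block. Against the Cux2 Lamp5 spots 31 of 90 such genes kept the call under every alternative, and against the Rorb Whrn spots 3 of 54. In neurons 17 of 76 such genes kept it under every alternative and 58 lost it under at least 1. There 1 gene changed direction, Pvalb, at a log2 fold change of -0.13 with 10% of cells. With 1 section left out no residual degrees of freedom remain, so each section gives values with no test. Genes with under about 10 counts in the selected spots are limited by depth.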
